A study of Mus musculus with 4 samples.

Results

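The enzymes of histidine, carnosine and biogenic amine metabolism were followed through cancer cell lines of mouse pancreatic tumors. The set was defined by 10 gene symbols (Hal, Hdc, Hnmt, Ddc, Maoa, Maob, Carns1, Cndp1, Cndp2 and Aspa), chosen by what they encode. Earlier results of these data were known when the set was chosen, so the choice was not blind to them. Aldehyde dehydrogenases were left out. All 10 were found, each with 1 transcript cluster, among 19938 genes on the array. RNA came from 2 TPAC lines (K459 and TCPA18654) and 2 TPC lines (TPC18645 and TPC20223), with 1 Affymetrix Mouse Gene 1.0 ST array per line, no treatment and no stated age of the mice. TPAC cells carry floxed alleles of the NF-κB subunit p65 (p65fl/fl, the gene Rela), which TPC cells do not. All 4 lines also share the TGF-α transgene Ela-TGFa, a Cre allele spelled Ptg1a+/CRE in the labels (p48-Cre in the study's methods) and floxed Trp53 (Trp53fl/fl). The transgene is driven by the elastase promoter, which is active in acinar cells, and the Cre allele acts in the pancreas. The cells were grown from digested tumors, and the sources used here do not say if each line had its own mouse. P-values therefore measure the spread between these lines, which may be technical.

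Histidine has several fates in mammalian cells. Histidase (Hal) removes its amino group and starts its breakdown toward glutamate, histidine decarboxylase (Hdc) converts it to histamine, and carnosine synthase (Carns1) joins it to β-alanine to form carnosine, a dipeptide best known from muscle and brain. Biogenic amines such as dopamine and serotonin are made by aromatic amino acid decarboxylase (Ddc) and are oxidised by the monoamine oxidases A and B (Maoa and Maob) on the outer mitochondrial membrane. The comparison of TPAC with TPC lines asks how the transcript levels of these enzymes relate to the p65 genotype of the tumor cells.

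Promoter windows are shown for the genes whose log2 signal spanned 1 or more over the lines and that have a RefSeq window, Ddc, Maoa and Aspa; 6 of the 10 genes matched the table in all. Ddc is shown at both annotated starts, since the array gives 1 value for the gene and does not tell transcripts from these starts apart. Each sequence covers the 250 bases before the start (GRCm38.p6, 5′ to 3′ on the strand of the gene), and capitals mark the letters GGGCGG (a GC box, the sequence bound by Sp1-type factors) or TATAAA on either strand, overlapping matches included. The windows lie at chr11:11890409-11890658 (minus strand) and chr11:11898145-11898394 (minus strand) for Ddc, chrX:16619448-16619697 (plus strand) for Maoa and chr11:73324638-73324887 (minus strand) for Aspa.
Ddc, inner start: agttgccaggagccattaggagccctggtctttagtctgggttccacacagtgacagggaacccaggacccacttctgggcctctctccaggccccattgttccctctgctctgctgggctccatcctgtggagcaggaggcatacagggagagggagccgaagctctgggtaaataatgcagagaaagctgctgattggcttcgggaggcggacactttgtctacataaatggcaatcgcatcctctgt
Ddc, outer start: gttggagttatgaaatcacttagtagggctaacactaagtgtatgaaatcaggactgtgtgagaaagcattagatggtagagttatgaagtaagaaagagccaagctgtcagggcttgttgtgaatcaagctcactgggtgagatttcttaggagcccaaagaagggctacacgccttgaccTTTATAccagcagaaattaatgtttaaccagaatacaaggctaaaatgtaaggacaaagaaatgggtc
Maoa: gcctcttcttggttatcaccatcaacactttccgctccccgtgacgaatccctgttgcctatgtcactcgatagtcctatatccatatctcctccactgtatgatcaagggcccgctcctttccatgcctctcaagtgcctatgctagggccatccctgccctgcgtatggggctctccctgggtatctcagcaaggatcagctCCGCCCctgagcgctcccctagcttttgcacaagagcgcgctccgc
Aspa: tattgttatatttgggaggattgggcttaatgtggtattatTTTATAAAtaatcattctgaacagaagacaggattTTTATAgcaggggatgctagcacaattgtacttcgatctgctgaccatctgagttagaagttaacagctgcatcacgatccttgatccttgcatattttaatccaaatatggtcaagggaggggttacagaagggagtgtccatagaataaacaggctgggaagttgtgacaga
The Maoa window held 1 GC box, read on the opposite strand from 46 bases before the start, and 32.7% of all 32851 windows of this length held at least 1. The Aspa window held 3 TATAAA matches, of which 2 overlap, the outer Ddc window held 1 and the inner Ddc window neither motif, against 12.4% of all windows with TATAAA. GC content was 56.0% and 40.8% in the inner and outer Ddc windows, 56.8% in the Maoa window and 38.8% in the Aspa window. These matches describe the letters of the windows only.

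Because the arrays carry no detection call, olfactory receptor genes, which cultured pancreatic cancer cells are not known to use, served as a measure of background. The 95th percentile of 1015 such genes lay at a log2 signal of 6.34 in K459, 6.48 in TCPA18654, 6.37 in TPC18645 and 6.34 in TPC20223, and signals at or below it are called near background here. Carns1, Cndp2, Maoa and Maob were above it in all 4 lines. Hnmt and Cndp1 were near background in all 4 lines, 2 of 10 genes against 25.7% of all genes. Hdc, Hal and Aspa were above it in 1 line each and Ddc in 3 lines. The plot of log2 signals shows the 10 genes in each line.

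**Figure D1:**
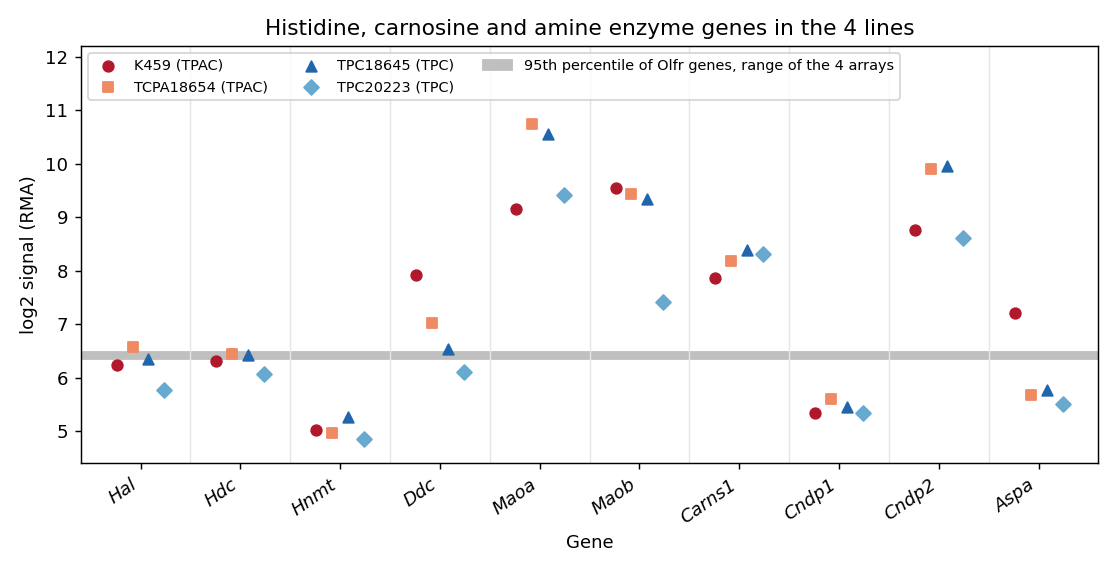
Log2 signal (RMA) of the 10 genes in each line, with TPAC lines in red and TPC lines in blue; each point is 1 array, and the grey band spans the 95th percentiles of olfactory receptor genes on the 4 arrays. Maob is low only in TPC20223, Aspa is above the band only in K459, and Maoa and Cndp2 are low in K459 and TPC20223.

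No gene of the set was called between the genotypes: 0 of 10 passed limma (adjusted p up to 0.05 with a log2 difference of at least 0.58 in size), as did 0% of all 19938 genes. Without adjustment, limma had p under 0.05 for 1 gene of the set (Ddc) and for 156 of all genes, and the methods' t-test for 0 and 517. The mean signal in TPAC cells was above that in TPC cells for 7 of the 10 genes and below it for 3. Over all 19938 genes it was above for 10520 and below for 9418. The median log2 difference was 0.10 for the set and 0.02 over all genes. Both TPAC lines were above both TPC lines for 2 genes (Ddc and Maob), which 13.7% of all genes also showed, and below both for 1 gene (Carns1), as did 13.3% of all genes. The 4 genes above background in every line are Carns1, Cndp2, Maoa and Maob, and only for these does the size of a difference not involve signals near background.

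Differences between single lines were given as counts with no test, since each line has 1 array. Of the 10 genes, 5 (Ddc, Cndp2, Maoa, Maob and Aspa) spanned a log2 signal of 1 or more over the 4 lines, against 15.9% of all genes, with a median span of 1.08 for the set and 0.40 for all genes. Without TPC20223 these were 4 genes (Ddc, Cndp2, Maoa and Aspa) and 4.96% of all genes, and without K459 they were 3 (Cndp2, Maoa and Maob) and 12.5%. Krt19, the ductal cytokeratin 19 gene, was at 12.65 in K459, 11.79 in TCPA18654, 11.74 in TPC18645 and, near background, at 6.08 in TPC20223. The 8 ductal and epithelial markers had a median signal of 12.38 in K459, 11.07 in TCPA18654, 10.98 in TPC18645 and 6.80 in TPC20223. Of these 8 markers, 7 were lowest in TPC20223; the exception was Sox9, a ductal transcription factor gene, with 11.56 and 10.14 in the TPAC lines, 10.21 in TPC18645 and 10.89 in TPC20223. The 7 mesenchymal markers had a median of 10.09 in K459, 10.03 in TCPA18654, 10.35 in TPC18645 and 10.69 in TPC20223. Of these, 6 were highest in TPC20223, and Vim, the vimentin gene, lay between 13.79 and 13.91 in all lines. The exception was Cdh2, the N-cadherin gene, lowest in TPC20223, with 11.41 and 11.80 in the TPAC lines, 11.97 in TPC18645 and 10.95 in TPC20223. The 6 fibroblast markers had a median of 8.85 in K459, 8.46 in TCPA18654, 8.52 in TPC18645 and 10.11 in TPC20223, where 5 of them were highest. Among these, the collagen gene Col1a1 was at 10.36 in K459, 8.72 in TCPA18654, 8.53 in TPC18645 and 13.02 in TPC20223, and Dcn, the decorin gene, was highest in TPC18645. Lum, counted as highest in TPC20223, was near background in all lines (4.27 to 4.72). Over all genes, TCPA18654 and TPC18645 were the most alike pair although their genotypes differ, with a median absolute log2 difference of 0.12, against 0.17 to 0.25 in the other pairs. Fewer cells of a type and less RNA per cell cannot be told apart in such cultures. Rela had a log2 signal of 10.82 and 11.10 in the TPAC lines and 11.12 and 10.70 in the TPC lines; its cluster spans the transcript, and this signal does not check the p65 genotype.

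Ddc and Hdc are the decarboxylases of the set. Ddc, which makes dopamine and serotonin from their amino acid precursors, had log2 signals of 7.91 in K459 and 7.02 in TCPA18654, against 6.54 in TPC18645 and 6.11 in TPC20223. The TPAC lines did not overlap with the TPC lines, and only TPC20223 was near background. TPC18645 exceeded the limit of its array by little (6.54 against 6.37). At the 99th percentile of olfactory receptor genes (7.38 in TCPA18654 and 7.07 in TPC18645), only K459 was above the limit. The means were 7.47 ± 0.63 in TPAC and 6.33 ± 0.30 in TPC cells (SD, n = 2 each), a log2 difference of 1.14 (standard error 0.38, 95% interval 0.05 to 2.23) that limma did not call (adjusted p = 0.989). The difference was 0.70 without K459, the line with the highest Ddc signal, and 1.59 without TCPA18654. The TPAC line TCPA18654 exceeded the TPC line TPC18645 by 0.48.

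Hdc, which makes histamine and is typical of mast cells and gastric enterochromaffin-like cells, had signals of 6.30 and 6.44 in the TPAC lines and 6.42 and 6.06 in the TPC lines. The groups overlapped, and the single signal above background, in TPC18645, exceeded the limit of that array by little (6.42 against 6.37). The difference of 0.13 had a 95% interval of -0.40 to 0.66 (limma, adjusted p = 0.989). Of the mast cell markers, 6 of 8 were near background in all lines, among them the mast cell carboxypeptidase gene Cpa3 (4.84 and 4.74 in TPAC, 4.81 and 4.65 in TPC lines) and the IgE receptor gene Fcer1a (4.07 and 4.30 in TPAC, 4.22 and 4.17 in TPC lines). The median of the 8 markers was 5.41 and 5.44 in the TPAC lines and 5.52 and 5.29 in the TPC lines. Kit, which other cells also use, was above background in all lines, at 7.72 and 7.59 in TPAC and 7.81 and 6.51 in TPC lines.

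Hal had signals of 6.23 and 6.57 in the TPAC lines and 6.34 and 5.77 in the TPC lines, above background only in TCPA18654, where the limit was 6.48. Its difference of 0.35 (95% interval -0.43 to 1.12; limma, adjusted p = 0.989) fell to 0.06 without TPC20223. Hnmt, the methyltransferase that inactivates histamine inside cells, had 5.01 and 4.97 in the TPAC lines and 5.27 and 4.85 in the TPC lines. These signals were all near background, so that no level of Hnmt can be given.

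The oxidases differed by line, and in different lines. Maob had log2 signals of 9.54 in K459 and 9.44 in TCPA18654, against 9.33 in TPC18645 and 7.42 in TPC20223. TPC20223 was thus lower than each other line by 1.91 or more, while the other 3 lines spanned 0.21. The means were 9.49 ± 0.07 in TPAC and 8.38 ± 1.35 in TPC cells (SD, n = 2 each), and the difference of 1.12 was not called by limma (95% interval -0.91 to 3.14, adjusted p = 0.989). It was 0.16 without TPC20223 and 2.07 without TPC18645 (adjusted p = 0.0982), where TPC20223 is the sole TPC line. In the same line 7 of the 8 ductal and epithelial markers (all but Sox9) were at their lowest. There, 6 of 7 mesenchymal markers (all but Cdh2) and 5 of 6 fibroblast markers (all but Dcn) were at their highest. Of the latter, Lum was near background in all lines, and Vim was higher than in TPC18645 by little (13.91 against 13.89). The part of the ductal and epithelial or of the mesenchymal and fibroblast markers' differences in the Maob signal was not tested.

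Maoa, whose product prefers serotonin and noradrenaline, had signals of 9.16 in K459 and 10.74 in TCPA18654, against 10.55 in TPC18645 and 9.41 in TPC20223. Each genotype thus held a high and a low line, and the groups overlapped fully. The means were 9.95 ± 1.12 in TPAC and 9.98 ± 0.81 in TPC cells (SD, n = 2 each), with a difference of -0.03 and a 95% interval of -2.09 to 2.03 (limma, adjusted p = 0.996). The sign turned with the line left out: the difference was 0.76 without K459 and 0.54 without TPC18645, but -0.82 without TCPA18654 and -0.60 without TPC20223. Maoa and Maob are neighbours on chromosome X with 0 annotated genes between them, and their profiles over the lines had a root mean square distance of 0.87 after centring; K459 was low for Maoa and not for Maob.

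The carnosine genes fell into synthesis and breakdown. Carns1 had log2 signals of 7.87 in K459 and 8.18 in TCPA18654, against 8.39 in TPC18645 and 8.31 in TPC20223. Both TPAC lines were lower than both TPC lines, with a smallest gap of 0.13 between TCPA18654 and TPC20223. The difference was -0.33 (standard error 0.17, 95% interval -0.80 to 0.15; limma, adjusted p = 0.989), and it was -0.17 without K459. Its span over the 4 lines, 0.52, was the smallest among the 4 genes above background in all lines.

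Cndp2, a cytosolic dipeptidase with a broad range of substrates, had signals of 8.75 in K459 and 9.89 in TCPA18654, against 9.96 in TPC18645 and 8.61 in TPC20223. As with Maoa, each genotype held a high and a low line. Alb, the serum albumin gene, was high in the same lines as both, with 7.68 in K459 and 12.77 in TCPA18654, against 12.47 in TPC18645 and 5.90 in TPC20223. The other measured hepatocyte markers were Apoa1 (9.40 and 8.50 in TPAC, 8.74 and 6.86 in TPC lines) and Fga, which was near background in all lines, and the part of such cells in the Maoa and Cndp2 signals was not tested. The means were 9.32 ± 0.81 in TPAC and 9.29 ± 0.95 in TPC cells (SD, n = 2 each), a difference of 0.04 with a 95% interval of -1.84 to 1.91 (limma, adjusted p = 0.996). Without K459 it was 0.61 and without TPC18645 0.71, but it was -0.54 without TCPA18654 and -0.64 without TPC20223. Cndp1, the carnosinase that is secreted into serum in humans, had 5.33 and 5.60 in the TPAC lines and 5.45 and 5.34 in the TPC lines, all near background. It lies next to Cndp2 on chromosome 18, with 0 protein-coding genes between them.

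Aspa, which splits N-acetylaspartate and whose loss causes Canavan disease, stood out in K459. Its log2 signal was 7.20 in K459 and 5.67 in TCPA18654, against 5.77 in TPC18645 and 5.51 in TPC20223. The 3 other lines were near background, and TCPA18654 lay between the TPC lines. The difference between genotypes was 0.80 (95% interval -0.86 to 2.45; limma, adjusted p = 0.989), 0.03 without K459 and 1.56 without TCPA18654. Aspa is typical of oligodendrocytes. Of 3 measured glial markers, S100b was near background in all lines, Sox10, a glial transcription factor gene, had 6.90 and 7.00 in the TPAC lines and 7.09 and 6.93 in the TPC lines, and Mbp, the myelin basic protein gene, had 8.14 and 8.33 in the TPAC lines and 8.32 and 7.39 in the TPC lines. K459 did not have the highest signal for Sox10 or Mbp.

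**Figure D2:**
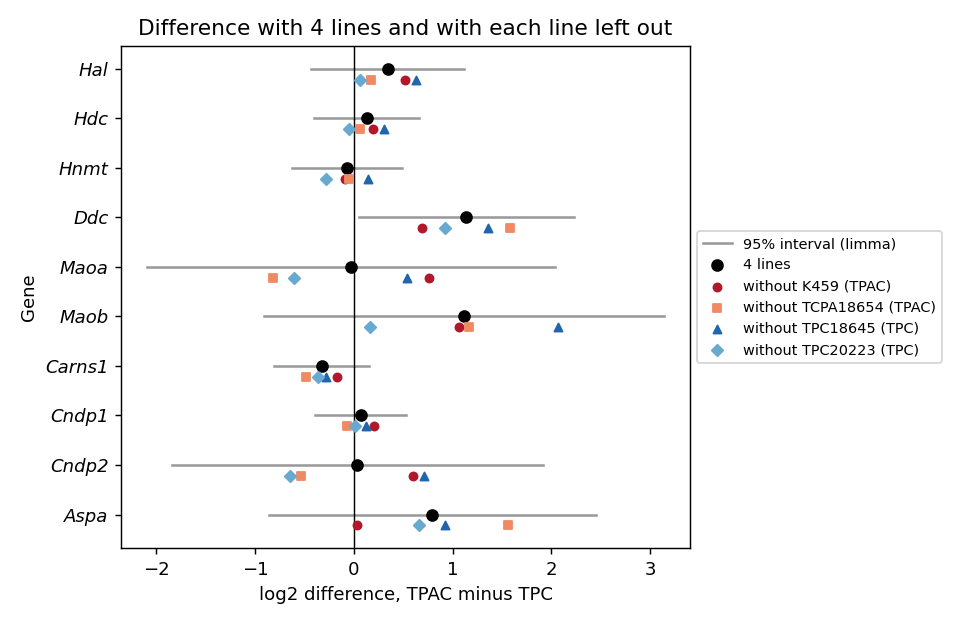
Log2 difference of each gene, TPAC minus TPC; black points use the 4 lines, grey bars are 95% intervals from limma, and coloured points leave out the line named. The interval of Ddc alone lies above 0, and Hdc, Hnmt, Maoa, Cndp1 and Cndp2 change sign with the line left out.

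Pairs of lines showed how the set divided. Between TCPA18654 and TPC18645, which carry different genotypes, 0 of the 10 genes differed by a log2 signal of 1 or more, as did 0.271% of all genes, and the largest difference was that of Ddc. Between K459 and TCPA18654, the TPAC lines, 3 genes differed (3.87% of all genes): Aspa was higher in K459 by 1.53, Cndp2 lower (-1.14) and Maoa lower (-1.58). Between TPC18645 and TPC20223, the TPC lines, 3 genes differed (11.2% of all genes), with Cndp2, Maoa and Maob higher in TPC18645 by 1.35, 1.14 and 1.91. TCPA18654 exceeded TPC20223 in the same genes by 1.28, 1.33 and 2.02 (10.9% of all genes).

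K459 differed from TPC20223 in 3 genes (10.9% of all genes), with Ddc, Maob and Aspa higher in K459 by 1.80, 2.12 and 1.69. It differed from TPC18645 in 4 genes (4.34% of all genes), with Ddc and Aspa higher by 1.37 and 1.43 and Cndp2 and Maoa lower (-1.21 and -1.39). The pairs share lines, so that these counts are not independent of each other.

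**Figure D3:**
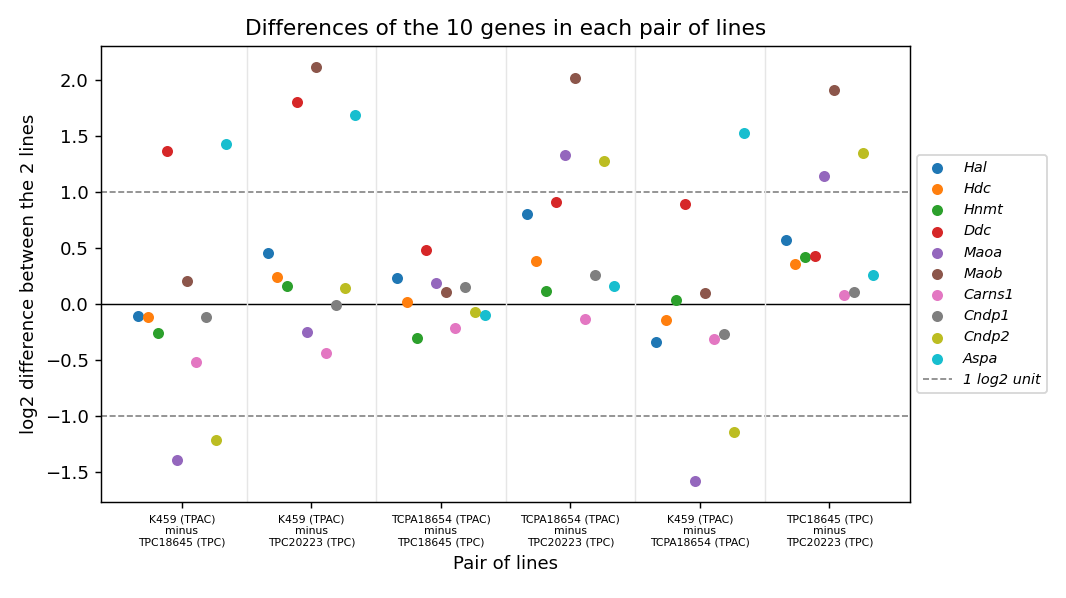
Log2 difference of the 10 genes (colours) between the lines of each of the 6 pairs, as the line named first minus the second; dashed lines mark 1 log2 unit. No gene passes 1 between TCPA18654 and TPC18645, and 3 or 4 genes do in each other pair.

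Genes with the most similar profile over the 4 lines were sought among those above the 40th percentile of mean signal, by the root mean square distance of centred signals. With 4 lines, many genes lie close to any profile, and these names describe likeness only. Closest to Ddc were Errfi1, Cdx2 and Il1rn, with distances of 0.10, 0.10 and 0.11, and 21 of 11957 genes lay within 0.2. Closest to Maob were Ezr, Tpd52 and Exoc6 (0.03, 0.03 and 0.05), with 73 of 11956 genes within 0.2. Closest to Maoa were Slco1a5, Cited2 and Insl6 (0.08, 0.10 and 0.12), and Cndp2 ranked 10 among 11956 genes with a distance of 0.18. Closest to Cndp2 were Bmp6, Ank1 and Enpp5 (0.04, 0.05 and 0.06), and Maoa ranked 41. Closest to Aspa were Tlcd2, Kcnq1 and Rin2, each at 0.07.

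Around these enzymes, 75 of 88 genes from 7 lists of the same pathways were measured by clusters with 1 symbol, and 0 of 75 were called by limma in either direction. Their mean signal in TPAC cells was above that in TPC cells in 37 and below it in 38, with a median log2 difference of -0.01. Before adjustment limma gave p under 0.05 for 2 of them (Abat and Odc1, adjusted p = 0.989 each), against 156 of all 19938 genes.

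In the 11 genes of histidine breakdown, use and transport, 7 differences were above 0 and 4 below, with a median of 0.10. Uroc1, the urocanase that follows histidase, had 6.45 and 6.72 in the TPAC lines and 6.47 and 6.48 in the TPC lines, and Amdhd1, the next enzyme, had 6.46 and 6.13 in TPAC and 6.29 and 6.03 in TPC lines. Uroc1 was above background in all lines, but by little in K459 (6.45 against 6.34) and TPC18645 (6.47 against 6.37). Amdhd1 was above it in K459 alone. Ftcd, which passes the formimino group to folate, differed by 0.08 and spanned 0.11 over the lines. Hars, the histidyl-tRNA synthetase gene, had 10.00 and 10.03 in TPAC and 10.09 and 9.56 in TPC lines. The lysosomal histidine transporter gene Slc15a4 had 9.11 and 9.73 in TPAC and 9.84 and 9.03 in TPC lines, low in the same lines as Maoa and Cndp2. Slc7a5 and Slc3a2, the subunits of a large neutral amino acid transporter that carries histidine, differed by -0.69 and -0.19, with Slc7a5 at 12.64 in TPC20223 and between 11.10 and 11.62 in the other lines.

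On the histamine side, 8 of 10 genes were measured and 3 were near background in all lines. These were Hrh4, Aoc1, the diamine oxidase gene, and Slc18a2, the vesicular monoamine transporter gene; Aoc1 had 6.07 and 5.87 in TPAC and 5.80 and 5.78 in TPC lines. The histamine receptor genes Hrh1 and Hrh2 differed by -0.03 and -0.15, and the monoamine transporter gene Slc29a4 by -0.07, with spans of 0.17, 0.24 and 0.31. Slc22a3 was not analysed here.

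Among 13 carnosine and β-alanine genes, 8 differences were below 0 (median -0.15), against 9418 of all 19938 genes. Of the 13 genes, 6 were near background in all lines. Carnmt1, which methylates carnosine to anserine, had 9.32 and 9.20 in TPAC and 9.17 and 8.88 in TPC lines. The taurine and β-alanine transporter gene Slc6a6 and the proton-coupled amino acid transporter gene Slc36a1 differed by -0.15 and -0.25. Abat, whose product transaminates GABA and β-alanine, was named for its unadjusted p: it had 8.04 and 8.29 in the TPAC lines and 9.10 and 9.88 in the TPC lines, which gave a difference of -1.33 (standard error 0.32) that was not called (limma, adjusted p = 0.989). Both TPAC lines were below both TPC lines, as for 13.3% of all genes. The difference was -0.94 without TPC20223 and -1.72 without TPC18645.

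Among the 19 measured monoamine genes, 10 differences were above 0 and 9 below (median 0.02). The largest in size was that of Pcbd1, which regenerates the tetrahydrobiopterin used by the aromatic amino acid hydroxylases and also binds the transcription factor HNF1. Pcbd1 had 12.08 and 11.94 in the TPAC lines and 11.88 in TPC18645, but 7.18 in TPC20223; its difference of 2.48 was 0.13 without that line. Qdpr and Spr, of the same cofactor pathway, differed by 0.26 and -0.20. Th and Tph1, the hydroxylases that feed Ddc, had 6.53 and 6.61 (Th) and 5.94 and 5.96 (Tph1) in TPAC lines, against 6.35 and 6.46 (Th) and 6.01 and 7.00 (Tph1) in TPC lines. Tph1 was above background in TPC20223 alone, and Th was near background in TPC18645. Of 7 measured islet and neuroendocrine markers, Chga, the chromogranin A gene, had 6.94 and 6.92 in TPAC and 6.82 and 6.81 in TPC lines, and none differed by more than 0.32.

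Of 10 N-acetylaspartate genes, 4 spanned 1 or more over the lines, and none of these was highest in K459, the line with the highest Aspa signal. Nat8l, which makes the substrate of Aspa, had 6.67 and 6.52 in the TPAC lines, against 6.37 in TPC18645 and 7.84 in TPC20223. Slc13a3, a carrier of N-acetylaspartate, spanned 0.21 over the lines, and Acy3, an aminoacylase related to Aspa, had 9.63 and 10.02 in TPAC and 10.21 and 9.21 in TPC lines. The transaminase genes Got1 and Got2 differed by 0.14 and 0.05.

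Polyamine genes went both ways, with 5 of 11 differences above 0. Odc1, ornithine decarboxylase, had 10.47 and 10.45 in the TPAC lines and 10.07 and 9.90 in the TPC lines, which gave a difference of 0.48 (standard error 0.14; limma, adjusted p = 0.989). Odc1 has 2 clusters, and only that with the highest mean is given. Sat1, the polyamine acetylase gene, and Srm, spermidine synthase, differed by 0.54 and -0.53, with TPC20223 farthest from the other lines for both (10.22 for Sat1 and 12.53 for Srm). Pdxk, whose product makes the pyridoxal phosphate that Ddc and Hdc need, spanned 0.18, and the methionine adenosyltransferase genes Mat2b and Mat1a differed by -0.17 and -0.06.

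**Figure D4:**
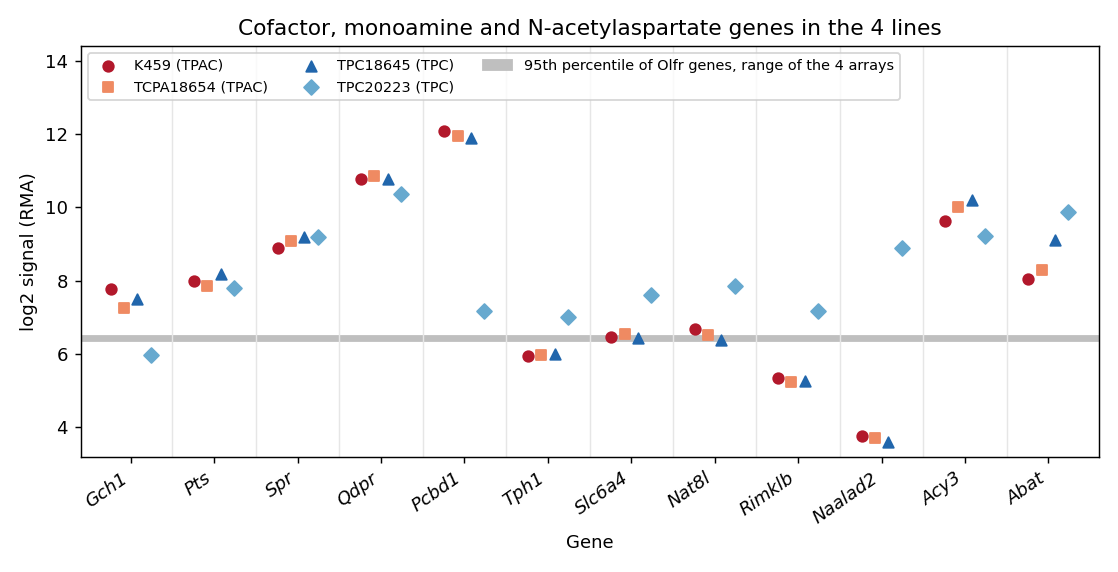
Log2 signal (RMA) in each line of 12 genes of tetrahydrobiopterin, monoamine, N-acetylaspartate and β-alanine metabolism, chosen after their values were seen; points and band as in the plot of the 10 enzyme genes. Pcbd1 and Gch1 are low, and Tph1, Slc6a4, Nat8l, Rimklb and Naalad2 are high, in TPC20223.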

How the data were processed

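The authors deposited log2 signals made with RMA (Affymetrix Expression Console 1.4, according to the submitters' processing notes); filters are not given in the sources used here. RMA sets the arrays to nearly the same distribution, so that a difference in total RNA cannot be seen. Precision is limited by there being 4 arrays. Among 28941 transcript clusters, 21789 had 1 symbol in the platform annotation; the cluster with the highest mean stood for each of 19938 genes. Signals of the genes in the set were not ranked against each other, since probes differ in response. Ranks over genes served for the percentile limits and for the genes named by highest mean signal. The 2 genotypes were fitted in limma 3.58.1 under R 4.3.3 (lmFit, then eBayes, two-sided); all genes entered the Benjamini-Hochberg adjustment, and none was filtered for low signal. The smallest p that an exact permutation test, two-sided, can give here is 0.333. The limma fit was tested on simulated data with the same spread for every gene, which does not measure its power in these data. The genes, lists and rules were chosen with earlier results of these data known. Named beyond the set were the 3 genes of highest mean signal in each list, partner genes listed by name, and the 3 closest profiles; others were named after their values were seen. The fit was repeated with cyclic loess, a common median per array, averaged clusters, only genes above the 40th percentile, an intensity trend, the methods' t-test, other background limits, no limit on the log2 difference and leaving out each line.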

Additional observations from a re-analysis of the deposited data

How the results depend on the processing

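No gene of the set, and none of all genes, was called under any limma alternative or by the methods' t-test; the smallest adjusted p of limma over all genes was 0.0913, without TPC18645. With the 4 lines, the adjusted p of the set was 0.974 or more under limma and the methods' t-test. Over 94 alternative values of a log2 difference 7 changed sign, all with a line left out. The intensity trend, the methods' t-test, averaged clusters and the 40th percentile limit leave these differences unchanged and could not change a sign. With each line left out in turn the log2 difference ran from -0.05 to 0.31 for Hdc, from -0.28 to 0.14 for Hnmt, from -0.065 to 0.205 for Cndp1, from -0.64 to 0.71 for Cndp2 and from -0.82 to 0.76 for Maoa. With 1 line of a genotype left, limma takes it to vary like the other lines. The number of genes with the TPAC lines on one side of the TPC lines was 3 with the 4 lines and ran from 5 to 8 with a line left out (55.0% to 75.2% of all genes), as fewer lines overlap less; the number spanning 1 or more ran from 3 to 5. Leaving out lines for these counts was chosen after seeing the data. Of 40 signals of the set (10 genes in 4 lines), 18 were near background; the 90th and 99th percentiles of olfactory receptor genes gave 12 and 22, and the 40th percentile of all genes 21. Counts for pairs of lines did not change with cyclic loess. The mean of clusters could not change them, since each gene of the set has 1 cluster. Above the 40th percentile, 4 genes of the set remained. No paired analysis was possible because the labels do not link a TPAC line to a TPC line.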

Other observations

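Several genes of neighbouring pathways had a signal in TPC20223 apart from that in each other line; they were chosen after their values were seen and have no test. Naalad2, a peptidase gene related to the N-acetylaspartylglutamate hydrolase Folh1, had a log2 signal of 3.77 in K459, 3.72 in TCPA18654 and 3.61 in TPC18645, and 8.88 in TPC20223. Rimklb, a synthetase of N-acetylaspartylglutamate, had 5.35 and 5.24 in the TPAC lines and 5.26 in TPC18645, all near background, and 7.18 in TPC20223. The serotonin transporter gene Slc6a4 had 6.45 and 6.55 in the TPAC lines, 6.44 in TPC18645 and 7.62 in TPC20223. In contrast Gch1, which starts tetrahydrobiopterin synthesis, had 7.77 and 7.25 in the TPAC lines and 7.50 in TPC18645, but 5.96, near background, in TPC20223.

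Ddo, the D-aspartate oxidase gene, had 5.15 in K459 and 6.40 in TCPA18654, against 6.24 in TPC18645 and 4.84 in TPC20223, with the same pair of higher lines as Maoa and Cndp2, though all 4 signals were near background.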
